A study of Mus musculus with 24 samples.

Results

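The immunoglobulin heavy-chain V segments, the *Ighv* genes, were followed in RNA from the ileum of 24 C57BL/6N mice. The annotation of GRCm38 lists 113 *Ighv* genes of the functional V segment type, of which 109 had at least 1 read. The 80 segments with at least 3 reads in at least 6 libraries were taken as members, out of 55536 genes in the count table. The mice were 4 to 5 weeks old at the start and were fed a control diet (CD, 10% of energy from fat) or a high-fat diet (HFD, 60%) for 20 weeks. The CDmetf and HFDmetf groups then received metformin, an oral antidiabetic drug, in the drinking water at 50 mg/kg body mass/day for 10 weeks, and the CD and HFD groups received none. Each group held 6 animals with 1 library each, 3 males (M1 to M3) and 3 females (F1 to F3). All animals were of 1 inbred strain, and the 4 groups differed by label in diet and metformin.

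Each B cell joins 1 heavy-chain V segment to a D and a J segment while it develops, and the joined exon encodes the variable domain of its antibody. The mouse segments are grouped into families by sequence similarity, and the largest is the *Ighv1* family. In the ileum most antibody is made by IgA-secreting plasma cells of the lamina propria, which descend from B cells selected in Peyer's patches and other lymphoid tissue. Members of a clone carry the same joined segment. RNA counted on a segment therefore comes from the cells of all clones that use it, and in bulk tissue more cells and more RNA per cell cannot be told apart.

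The 80 segments lie on the minus strand of chromosome 12, and each gene has 2 coding exons, of which the second, the V exon, encodes nearly all of the variable part. The median identity of a member's V exon to its nearest relative was 95.4% (range 76.5% to 100%). Of the 80 V exons, 56 shared no stretch of 100 bases, taken as the length of an untrimmed read, with any other immunoglobulin V transcript. Only *Ighv1-71* and *Ighv1-62-2* had identical V exons, so reads that lie within this exon cannot tell them apart and their separate counts are uncertain. The last 300 bases of the V exon are given 5′ to 3′ for 7 segments from the GENCODE M21 transcripts on GRCm38, minus strand. Capitals mark bases that differ from the nearest relative in an alignment of the V exons (*Ighv6-6* and *Ighv6-3* for each other, *Ighv1-4* for *Ighv1-7*, *Ighv14-1* for *Ighv14-3*, *Ighv1-85* for *Ighv1-81*, *Ighv11-2* for *Ighv4-1* and *Ighv11-1* for *Ighv11-2*). *Ighv6-3* and *Ighv6-6* are shown because they led most libraries, *Ighv1-7*, *Ighv14-3* and *Ighv1-81* because they were given as markers of the group, and *Ighv4-1* because it took the largest share of any library. The study that reported these animals names all 3 markers as differentially expressed in CDmetf vs. CD. Their values in that contrast are therefore not an independent observation. *Ighv11-2* lies outside the 80 members and was chosen after its values were seen.
Ighv6-3 (chr12:114391712-114392011): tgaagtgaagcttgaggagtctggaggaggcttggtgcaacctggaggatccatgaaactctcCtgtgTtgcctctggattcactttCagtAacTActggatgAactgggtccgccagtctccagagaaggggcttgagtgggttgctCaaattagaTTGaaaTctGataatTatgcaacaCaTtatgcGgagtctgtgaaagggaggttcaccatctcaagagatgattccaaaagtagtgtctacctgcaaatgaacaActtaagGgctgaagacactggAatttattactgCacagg
Ighv6-6 (chr12:114434788-114435087): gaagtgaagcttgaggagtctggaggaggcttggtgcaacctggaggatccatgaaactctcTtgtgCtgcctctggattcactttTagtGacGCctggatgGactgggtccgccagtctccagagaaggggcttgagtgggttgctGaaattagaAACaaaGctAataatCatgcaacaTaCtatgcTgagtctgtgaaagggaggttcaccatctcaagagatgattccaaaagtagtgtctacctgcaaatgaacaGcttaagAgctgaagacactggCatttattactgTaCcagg
Ighv1-7 (chr12:114538495-114538794): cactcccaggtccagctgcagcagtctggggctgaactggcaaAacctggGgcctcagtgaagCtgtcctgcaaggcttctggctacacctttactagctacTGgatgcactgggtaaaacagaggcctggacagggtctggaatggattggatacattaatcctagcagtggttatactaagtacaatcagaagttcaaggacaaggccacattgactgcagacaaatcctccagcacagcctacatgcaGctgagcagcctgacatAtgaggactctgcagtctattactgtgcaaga
Ighv14-3 (chr12:114059845-114060144): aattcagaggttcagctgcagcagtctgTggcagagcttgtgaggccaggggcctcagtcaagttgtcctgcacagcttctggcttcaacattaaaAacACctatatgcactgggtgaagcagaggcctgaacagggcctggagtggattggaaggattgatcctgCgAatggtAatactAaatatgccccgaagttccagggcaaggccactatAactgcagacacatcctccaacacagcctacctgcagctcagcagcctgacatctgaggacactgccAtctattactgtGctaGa
Ighv1-81 (chr12:115920279-115920578): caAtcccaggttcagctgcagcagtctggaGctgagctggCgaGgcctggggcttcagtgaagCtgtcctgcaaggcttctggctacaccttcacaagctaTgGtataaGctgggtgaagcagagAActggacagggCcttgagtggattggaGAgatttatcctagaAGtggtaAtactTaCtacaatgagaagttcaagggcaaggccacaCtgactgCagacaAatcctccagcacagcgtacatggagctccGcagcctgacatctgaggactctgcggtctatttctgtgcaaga
Ighv4-1 (chr12:113948282-113948581): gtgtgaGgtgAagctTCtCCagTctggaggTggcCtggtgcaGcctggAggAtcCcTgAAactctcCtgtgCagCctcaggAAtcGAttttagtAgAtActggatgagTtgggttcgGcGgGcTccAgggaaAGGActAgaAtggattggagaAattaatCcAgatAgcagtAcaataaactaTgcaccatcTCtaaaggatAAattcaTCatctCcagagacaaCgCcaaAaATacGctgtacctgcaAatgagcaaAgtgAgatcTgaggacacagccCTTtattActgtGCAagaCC
Ighv11-2 (chr12:114048241-114048540): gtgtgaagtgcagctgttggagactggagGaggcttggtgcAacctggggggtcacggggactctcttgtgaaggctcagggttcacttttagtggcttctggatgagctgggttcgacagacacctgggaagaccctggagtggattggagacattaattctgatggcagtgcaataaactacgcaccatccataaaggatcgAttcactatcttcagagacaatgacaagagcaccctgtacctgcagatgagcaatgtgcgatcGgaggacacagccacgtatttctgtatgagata
*Ighv6-3* and *Ighv6-6* were 92.6% identical over the V exon and shared no 100-base stretch, so a read of 100 bases within the exon could be assigned to 1 of them. In *Ighv1-7*, 23.3% of the 100-base stretches also occurred in another V transcript, while *Ighv14-3* and *Ighv1-81* had none that did.

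The libraries held between 1829690 and 40606442 reads on genes. Between 486 reads (HFDmetf F2) and 31947 reads (HFD F3) fell on the 80 members, so shares in the shallow libraries carry the wider counting error. In CD M3, 10 genes took 85.4% of all gene reads, against 9.22% to 36.6% in the other libraries. The library labelled HFD M2 had 3355 *Xist* reads and 0 reads on Y-linked genes, and the library labelled HFD F2 had 1 and 423, so their sex-linked transcripts went against the labels. The markers of the ileum were uneven. *Fabp6*, the ileal bile acid binding protein, was at 0.817 CPM (read counts scaled to libraries of equal size) in HFD M3, 32.6 in CD M1 and 35.3 in CDmetf F1, against 127 to 2662 CPM in the other 21 libraries. *Slc10a2*, the ileal bile acid transporter, was also lowest in HFD M3 (4.90 CPM), CDmetf F1 (14.4 CPM) and CD M1 (21.6 CPM), with 31.1 to 1363 CPM elsewhere, while *Mep1b*, a brush border protease, was at 201 to 1255 CPM in all 24. In these 3 libraries the ileum-specific markers were thus near absent or low, and the part of this in the results was not tested.

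In none of the contrasts was the difference in the summed level of the 80 segments larger than the spread between animals. In CD the total was 319, 479 and 792 CPM (lowest, median, highest), and in CDmetf it was 244, 707 and 866 CPM. In HFD it was 221, 580 and 784 CPM, and in HFDmetf 276, 534 and 814 CPM. The ranges of all 4 groups overlapped. With the 80 segments summed into 1 row and tested among 14017 genes by edgeR's quasi-likelihood test, logFC was 0.11 (SE 0.32, FDR = 1.0) for HFD vs. CD and -0.21 (SE 0.32, FDR = 0.88) for HFDmetf vs. CDmetf. It was 0.05 (SE 0.32, FDR = 0.97) for HFDmetf vs. HFD and 0.36 (SE 0.32, FDR = 0.98) for CDmetf vs. CD. The diet by metformin interaction was -0.31 (SE 0.45, FDR = 0.89). The sign for HFD vs. CD turned to -0.05 without CD M3, and that for HFDmetf vs. HFD turned to -0.03 when HFD M2 and HFD F2 were both left out, to -0.04 over all segments and to -0.13 without HFDmetf M2.

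**Figure D1:**
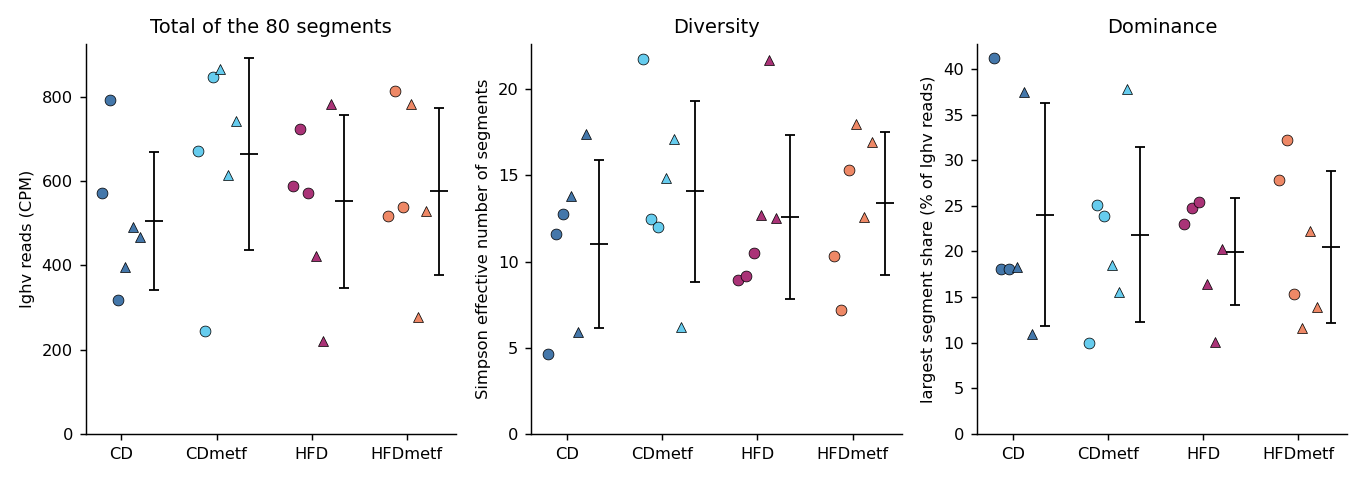
Summed level of the 80 Ighv segments (CPM, left), Simpson effective number of segments (middle) and share of the most used segment (percent of Ighv reads, right) in each library, by group. Circles are males, triangles females, and black bars the mean ± SD of 6 animals. The groups overlap in all 3 measures, and the totals run from 221 CPM in the library labelled HFD F2 to 866 CPM in CDmetf F1.

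Each library was led by a few segments, and which ones these were differed from animal to animal. *Ighv6-3* was the most used segment in 8 of 24 libraries and took 11.9% of *Ighv* reads on average (median 10.4%, range 0.295% to 37.5%). *Ighv6-6* led a further 8 libraries, with 9.94% on average (median 7.87%, range 0.662% to 25.4%). Both *Ighv6* segments reached at least 10% of the reads in 12 libraries each, and both led libraries in more than 1 group.

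The remaining libraries were led by 7 other segments. *Ighv4-1* took 41.2% of the *Ighv* reads of CD M1 (95% Wilson interval 39.9% to 42.5%), while its median over the 24 libraries was 0.627%. *Ighv1-7* took 37.8% in CDmetf F3 (37.3% to 38.4%), with 11840 of 31282 reads, and its median was 0.414%. *Ighv1-85* took 24.8% in the library labelled HFD M2 (23.02% to 26.6%), with a median of 0.307%. Each of these 3 segments reached 10% of the reads in no other library. *Ighv7-3* led HFD F3 with 20.3%, *Ighv1-53* led HFD F1 with 16.4%, *Ighv1-55* led CDmetf F2 with 15.6% and *Ighv9-3* led CDmetf M1 with 10.0%. The Wilson intervals cover counting error only, because reads without molecular identifiers are not independent molecules.

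In all, 17 segments reached 10% in at least 1 library, and 12 of them did so in exactly 1. Of the 80 members, 22 had a read in all 24 libraries and 7 had at least 3 reads in all of them. The 10 segments with the highest mean share together took 48.8% of the reads, and besides those already named they were *Ighv1-26* (4.42%), *Ighv3-6* (3.77%), *Ighv5-17* (2.52%) and *Ighv1-64* (2.47%). At the other end, 5 members averaged under 0.1%. The rarest kept by the rule, with 3 reads in exactly 6 libraries, were *Ighv1-31* (131 reads in all, 85 of them in HFDmetf F3), *Ighv1-36* (129 reads, 101 in HFDmetf M2) and *Ighv8-5* (47 reads). Just outside, with 5 such libraries, was *Ighv1-37* (180 reads, 100 in HFDmetf F3).

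**Figure D2:**
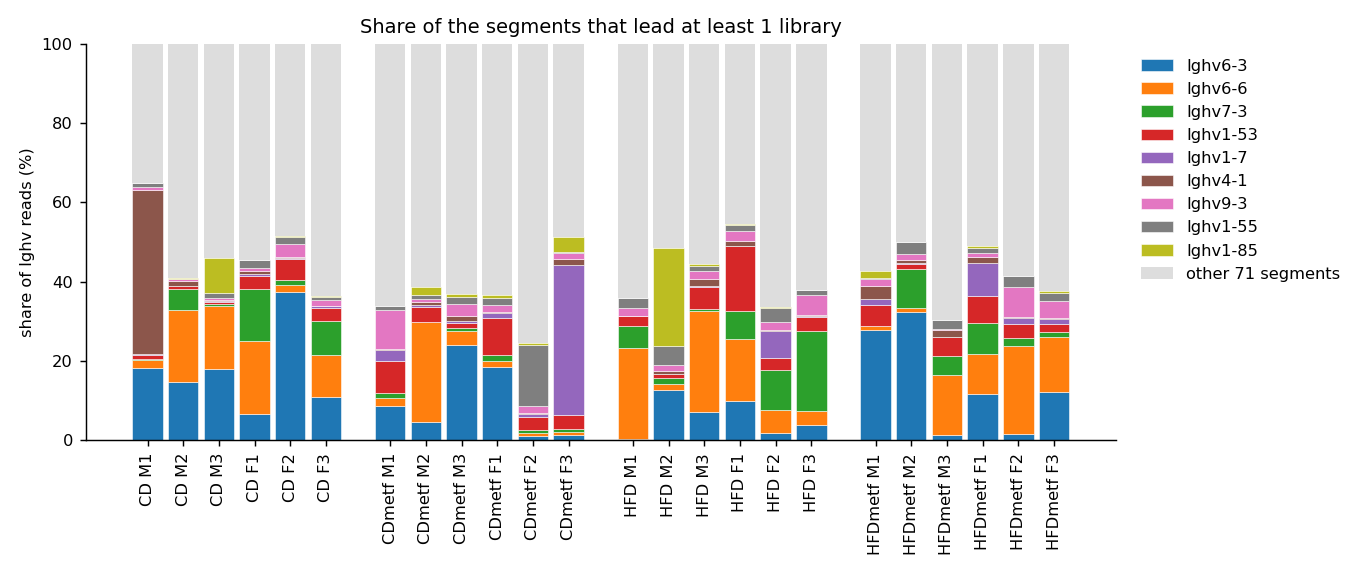
Share of Ighv reads (percent) taken in each of the 24 libraries by the 9 segments that led at least 1 library, with the remaining 71 segments in grey. Ighv6-3 and Ighv6-6 led 8 libraries each, while Ighv4-1 reached 41.2% in CD M1 and Ighv1-7 reached 37.8% in CDmetf F3 alone.

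The library labelled HFD F2 was the exception to the coverage of the rule. The 33 segments outside the rule held 1610 reads in all against 178845 on the members, and in the other 23 libraries they took 0.0492% to 2.91% of the *Ighv* reads. In HFD F2 they took 47.1%, and 324 of its 977 *Ighv* reads (33.2%) fell on *Ighv11-2*, whose sequence is printed above. In the other libraries *Ighv11-2* had at most 4 reads. A further 135 reads (13.8%) fell on *Ighv3-4*, which reached 262 reads in HFDmetf F1 and at most 25 elsewhere. Both were looked at after their values were seen. Among the 80 members, HFD F2 was led by *Ighv7-3* with 52 of 517 reads (10.1%, Wilson interval 7.75% to 12.95%). Its effective number of segments was 21.7 over the members and 7.06 over all segments, and its total was 221 CPM over the members and 418 CPM over all. For HFD F2 the measures over the members therefore leave out its leading segment, and each comparison with the HFD group is also given over all segments where its direction changed.

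The diversity of segments was measured by the Simpson effective number, which is the number of equally used segments that would give the same chance of drawing a pair of reads from the same segment. It ranged from 4.62 (CD M1) to 21.8 (CDmetf M1), and the groups averaged 11.0 ± 4.88 in CD, 14.1 ± 5.24 in CDmetf, 12.6 ± 4.74 in HFD and 13.4 ± 4.14 in HFDmetf (mean ± SD, n = 6). The range within a group was 4.62 to 17.4 in CD, 6.23 to 21.8 in CDmetf, 8.92 to 21.7 in HFD and 7.19 to 17.95 in HFDmetf, wider than any difference between group means. Over all segments the HFD range was 7.06 to 12.9. In exact two-sided sign-flip permutation tests over the 6 pairs of animals with the same sex and number, the smallest p that 6 pairs allow being 0.03125, the lowest p of the 4 contrasts was 0.34375. CDmetf exceeded CD by 3.05 segments on average (4 of 6 pairs, exact permutation p = 0.34, adjusted p = 0.84). HFD exceeded CD by 1.57 over the members (2 of 6 pairs, exact permutation p = 0.81) but was lower by 0.80 over all segments (-0.80, exact permutation p = 0.53).

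Because a deeper library detects more segments, the number expected in 500 randomly drawn *Ighv* reads was computed for the 23 libraries with that many. It was 48.4 ± 5.07 in CD, 56.4 ± 4.65 in CDmetf, 50.7 ± 2.80 in HFD (n = 6 each) and 53.3 ± 2.52 in HFDmetf (n = 5). CDmetf F1 showed the most segments (62.1) and CD M1 the fewest (42.6). CDmetf exceeded CD by 7.99 segments on average, but only in 4 of 6 pairs (exact permutation p = 0.125, adjusted p = 0.25). The other contrasts gave exact permutation p values of 0.16 for HFD vs. CD (6 pairs), 0.19 for HFDmetf vs. HFD and 0.44 for HFDmetf vs. CDmetf (5 pairs each, smallest possible p 0.0625).

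The share of the most used segment averaged 24.02% ± 12.2 in CD, 21.8% ± 9.61 in CDmetf, 20.0% ± 5.87 in HFD and 20.5% ± 8.31 in HFDmetf (SD, n = 6). None of the contrasts was larger than the spread between pairs (exact permutation p from 0.53 to 0.94, 0 of 4 under 0.05). Over all segments the HFD mean was 23.7% ± 5.69.

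Animals of the same group differed about as much in their segments as animals of different groups. The Bray-Curtis dissimilarity of segment shares, which is 0 for identical and 1 for disjoint usage, had a median of 0.589 over the 60 pairs within a group and 0.568 over the 216 pairs between groups. Within groups the medians were 0.607 in CD, 0.621 in CDmetf, 0.610 in HFD and 0.520 in HFDmetf. These medians are a description, since each library enters many pairs.

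By family, *Ighv1* with 42 of the 80 members took 45.5% of the reads on average (23.9% in CD M2 to 73.0% in CDmetf F2). The *Ighv6* family took 21.9% on average with only 2 members (1.77% in CDmetf F2 to 39.3% in CD F2). The families *Ighv5* (8 members, 6.47%), *Ighv7* (3 members, 5.48%), *Ighv3* (4 members, 4.53%), *Ighv2* (6 members, 3.67%) and *Ighv9* (4 members, 3.62%) followed. The *Ighv10*, *Ighv4*, *Ighv14*, *Ighv8* and *Ighv13* families averaged 2.88%, 2.48%, 2.09%, 0.908% and 0.466%.

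The largest differences in family shares lay between CD and CDmetf, and none passed after adjustment. The *Ighv1* share was 23.9%, 34.4% and 47.9% (lowest, median, highest) in CD and 40.7%, 51.3% and 73.0% in CDmetf, and CDmetf was higher in 6 of 6 pairs by 19.5 percentage points on average (SD of the pair differences 12.6). The *Ighv6* share was 20.2%, 28.9% and 39.3% in CD and 1.77%, 15.3% and 29.8% in CDmetf, lower in CDmetf in all 6 pairs, with a mean difference of -13.5 percentage points (SD 13.1). Both gave the smallest exact permutation p that 6 pairs allow, 0.03125, and an adjusted p of 0.3125 over 40 tests of 10 families in 4 contrasts. With that floor, an adjusted p under 0.05 was possible only if most of the 40 tests stood at it. The lack of a pass therefore decides little. The share of every family is bound to the others, since all add to 100%, so a higher *Ighv1* share and a lower *Ighv6* share are not separate results.

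In HFDmetf vs. CDmetf, the *Ighv1* share was lower in all 6 pairs (37.03%, 45.1% and 50.8% in HFDmetf, mean difference -11.4 percentage points). The *Ighv7* share was higher in all 6 (1.25%, 4.44% and 10.8% in HFDmetf against 0.617%, 1.05% and 3.24% in CDmetf, mean difference 3.53 percentage points). Both again stood at the smallest possible exact permutation p of 0.03125 (adjusted p = 0.3125). This contrast uses the same CDmetf animals as CDmetf vs. CD, so these contrasts are not independent. In the whole set, 4 of 40 tests were at p under 0.05 and 0 after adjustment. The pairs share a sex and a replicate number, and although the animals were kept in randomized blocks, no label says that a number marks a block. In the exact permutation test of 6 against 6 animals without pairing, p was 0.019 for *Ighv1* and 0.052 for *Ighv6* in CDmetf vs. CD, and 0.087 for *Ighv1* and 0.039 for *Ighv7* in HFDmetf vs. CDmetf. Without pairing, *Ighv9* (exact permutation p = 0.039) and *Ighv7* (exact permutation p = 0.048) in CDmetf vs. CD were also under 0.05, and again none passed after adjustment (smallest adjusted p = 0.385).

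**Figure D3:**
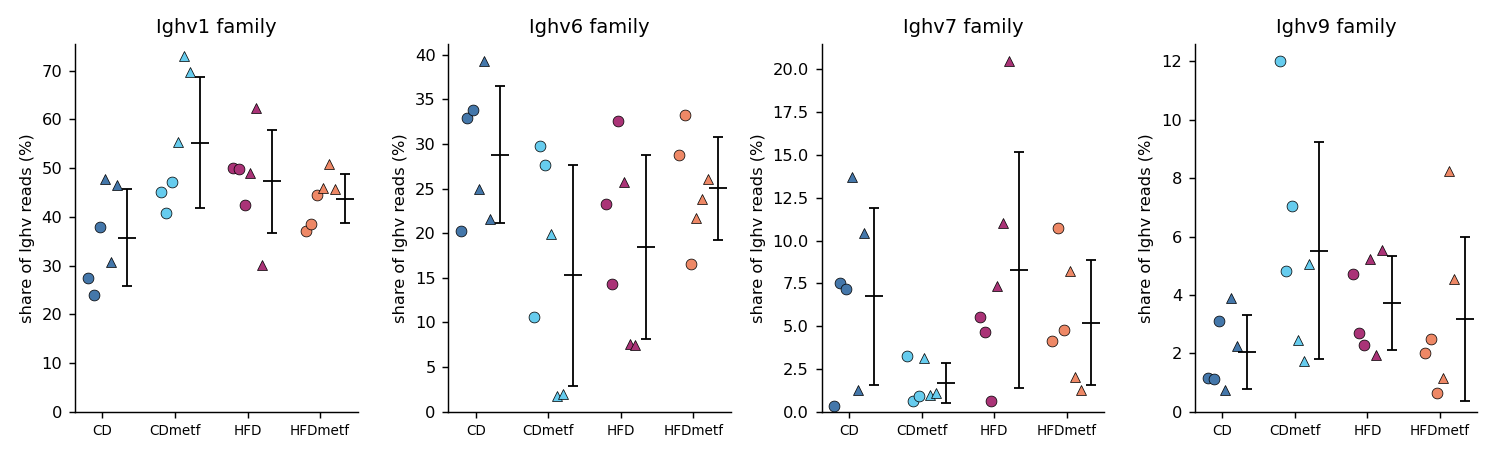
Share of Ighv reads (percent) of the Ighv1, Ighv6, Ighv7 and Ighv9 families in each library, by group (circles males, triangles females, black bars mean ± SD, n = 6). The Ighv1 share averaged 35.7% in CD and 55.2% in CDmetf and the Ighv6 share 28.8% and 15.3%, with overlapping ranges.

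As levels rather than shares, *Ighv1* reads amounted to 121, 173 and 217 CPM in CD and 99.2, 424 and 518 CPM in CDmetf. Only CDmetf M2, whose total was also the lowest of its group, lay inside or below the CD range. With the families as 12 rows of the table, edgeR gave *Ighv1* a logFC of 1.09 in CDmetf vs. CD (SE 0.30, unadjusted p = 0.0017, FDR = 0.94). *Ighv9* gave 1.95 (SE 0.56, FDR = 0.94), from 2.97, 9.35 and 19.1 CPM in CD to 10.6, 29.4 and 80.7 CPM in CDmetf. *Ighv6* gave -0.85 (SE 0.57, FDR = 0.95). No family passed an FDR of 0.05 in any contrast (0% of 14027 genes passed in each), and the largest interaction by p was *Ighv9* with -2.52 (SE 0.79, FDR = 0.68).

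At the level of single segments, 60 of the 80 members passed the filter on low counts and were tested among 14076 genes, and none passed an FDR of 0.05 in any of the 4 contrasts or the interaction, where the background was also 0.0% of genes. The other 20 members did not pass the filter. Variation between animals was large: the biological coefficient of variation had a median of 0.973 over the 60 tested segments and 0.223 over the 14016 other genes. In CDmetf vs. CD, 31 of the 60 tested segments (51.7%) had an absolute logFC over 1, against 2.32% of all genes tested.

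The contrast with the most segments at an unadjusted p under 0.05 was CDmetf vs. CD. There 16 of 60 (26.7%) were below it and all 16 were higher in CDmetf, while 5.14% of all genes were below it, 2.74% higher and 2.41% lower. The median logFC was 0.72 over the tested segments and 0.00 (-0.0023) over all genes, and 45 of the 60 were above 0, as were 49.6% of all genes. Of the 16 segments, 10 belonged to *Ighv1* (32 tested), 2 each to *Ighv5* (7 tested) and *Ighv9* (2 tested), and 1 each to *Ighv8* (2 tested) and *Ighv14* (3 tested), while neither *Ighv6* segment was among them. These counts are at unadjusted p, and DESeq2 counted 18 of 60. For alternative fits, here and below, the share of all genes at that p was not computed. Leaving out CDmetf M3 gave 10 of 63, all of them higher.

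*Ighv14-3* had the smallest p of the tested segments and was a marker that the study had already named for this contrast. A gap between the groups is likely in a segment picked in this way. The share of all genes with such a gap was not computed. Its level was 0.473, 1.21 and 1.86 CPM in CD and 2.71, 6.22 and 17.6 CPM in CDmetf, so the lowest CDmetf animal lay above the highest CD animal. The logFC was 2.60 (SE 0.60, unadjusted p = 0.00027, FDR = 0.94) and CDmetf was higher in 6 of 6 pairs. In DESeq2 this segment passed, with an adjusted p of 0.040.

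*Ighv1-7* was at 0.532, 1.35 and 2.16 CPM in CD and 1.20, 7.83 and 281 CPM in CDmetf. CDmetf F3 held the highest value, and the logFC was 4.61 (SE 1.25, unadjusted p = 0.0013, FDR = 0.94) with it and 2.51 without it. CDmetf was higher in 6 of 6 pairs, although its lowest animal lay within the CD range.

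*Ighv1-81* was at 0.670, 2.05 and 5.58 CPM in CD and 0.902, 6.66 and 15.2 CPM in CDmetf, with overlapping ranges. Its logFC was 1.31 (SE 0.60, unadjusted p = 0.040, FDR = 0.94), higher in 5 of 6 pairs. *Ighv1-18* was at 0, 1.12 and 10.4 CPM in CD and 1.63, 6.99 and 63.3 CPM in CDmetf, higher in 6 of 6 pairs (logFC 2.94, SE 0.86, FDR = 0.94). Of the leading segments, *Ighv1-53* (logFC 1.34), *Ighv9-3* (1.92), *Ighv1-55* (1.72) and *Ighv1-64* (0.96) were also among the 16, whereas *Ighv6-3* had a logFC of -0.25 (SE 0.95) and *Ighv6-6* of -1.58 (SE 0.81).

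**Figure D4:**
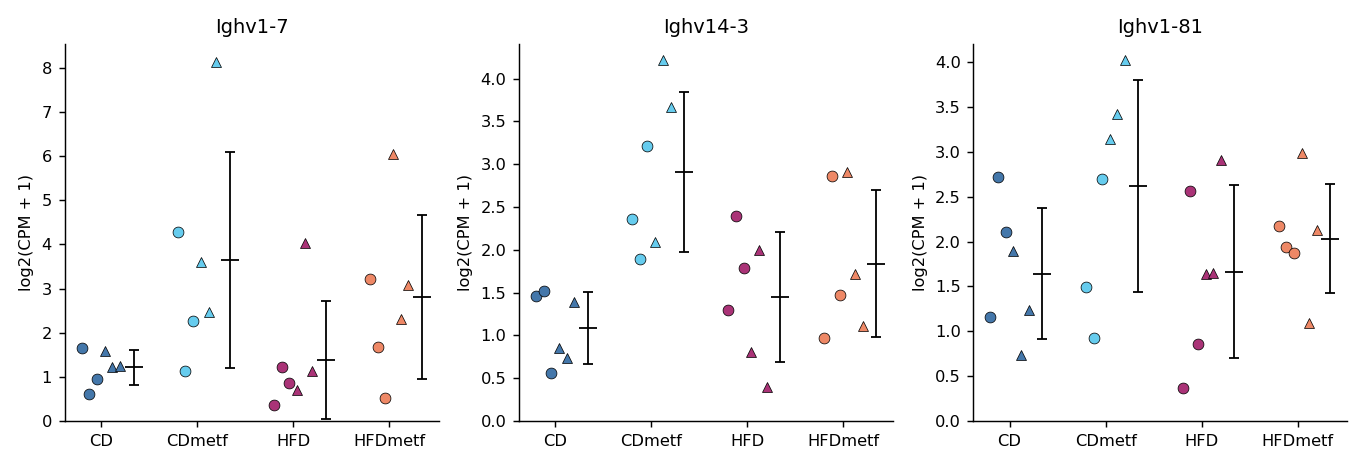
Level of Ighv1-7, Ighv14-3 and Ighv1-81 in each library as log2(CPM + 1), by group (circles males, triangles females, black bars mean ± SD, n = 6). For Ighv14-3 the 6 CDmetf animals (2.71 to 17.6 CPM) lie above the 6 CD animals (0.473 to 1.86 CPM), while the other 2 segments overlap between groups and Ighv1-7 reaches 281 CPM in CDmetf F3. The study had named these segments for this contrast, and Ighv14-3 had the smallest p of the tested segments.

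The levels of B-cell marker genes also differed in this contrast at an unadjusted p. All 12 of a list of B-cell markers (including *Ms4a1* and *Cd79a*) were at unadjusted p under 0.05 and higher in CDmetf vs. CD, 0 of them at an FDR of 0.05. Their summed level was 7.98, 21.7 and 93.1 CPM in CD and 15.3, 80.6 and 501 CPM in CDmetf (lowest, median, highest). The high CDmetf values came from M1 (187 CPM), F2 (501 CPM) and F3 (141 CPM). CDmetf M2, M3 and F1 (15.3 to 20.6 CPM) lay within the CD range. Of the 7 plasma cell markers tested, 2 were at p under 0.05 and higher, and that list's summed level was 436 to 948 CPM in CD and 485 to 993 CPM in CDmetf. Of the 7 constant-region genes tested, 2 were higher at that p and 0 lower (median logFC 1.67). None of the 12 B-cell markers was at 0 in all libraries. With a B-cell score as a covariate, 15 of 64 tested segments were at p under 0.05 and higher in CDmetf vs. CD, and the logFC of *Ighv14-3* was 2.21 (FDR = 0.83). With the *Ighv* total as a covariate, 15 of 73 were at p under 0.05, 12 of them higher.

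The other contrasts held fewer such segments. In HFD vs. CD, 7 of 60 (11.7%) were at unadjusted p under 0.05, 5 of them higher and 2 lower in HFD, against 4.63% of all genes, 2.59% higher and 2.04% lower. The median logFC was 0.32, 39 of 60 were above 0 (48.8% of all genes were), and 26 had an absolute logFC over 1 (2.05% of all genes had). The count was 11 or 12 without CD M1, CD M2, CD F3, CDmetf M1, HFD M3, HFD F1 or HFD F2. In this contrast 10 of the 12 B-cell markers were higher at unadjusted p under 0.05, with a summed level of 15.5, 37.1 and 406 CPM in HFD. HFD F1 (406 CPM) and the library labelled HFD M2 (251 CPM) were the highest. The other HFD libraries, at 15.5 to 49.8 CPM, lay within the CD range. *Ighv1-72* was at 0.722, 1.39 and 2.41 CPM in CD and 3.95, 4.90 and 122 CPM in HFD, so the groups did not overlap (logFC 3.08, SE 0.90, unadjusted p = 0.0026, FDR = 1.0). This segment was picked for its small p, and the share of all genes without overlap was not computed. The 122 CPM came from HFD M1, where the segment took 20.7% of *Ighv* reads, and without that animal logFC was 1.56. *Ighv1-47* had the smallest p, with 0, 0.369 and 37.7 CPM in CD. In HFD it had reads in only 1 of 6 animals (0.541 CPM in HFD F1, the deepest library). Its logFC of -7.41 (SE 1.86, unadjusted p = 0.00067, FDR = 1.0) was -3.94 without CD M1 and -9.36 without CD F1, the latter with an FDR of 0.0018, while limma-voom gave -0.30 (unadjusted p = 0.84).

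*Ighv1-75*, also picked for its small p, was split within the HFD group. The split was not a planned comparison, and the share of all genes that separate groups in this way was not computed. The 3 libraries labelled HFD males were at 0.290, 1.98 and 1.64 CPM and the 3 labelled females at 21.5, 20.1 and 22.5 CPM, while the 6 CD animals lay between 0.997 and 2.13 CPM. The 6 CDmetf animals lay between 3.44 and 11.9 CPM, above all CD animals, and the HFDmetf animals between 0 and 4.12 CPM. By sex-linked transcripts HFD M2 (1.98 CPM) and HFD F2 (20.1 CPM) went against these labels. The part of sex or of the labels in this split was not tested. The logFC was 2.66 in HFD vs. CD (SE 0.75, unadjusted p = 0.0018, FDR = 1.0), 2.17 in CDmetf vs. CD (SE 0.73, FDR = 0.94), -2.44 in HFDmetf vs. CDmetf (SE 0.76, FDR = 0.58) and -2.93 in HFDmetf vs. HFD (SE 0.76, FDR = 0.64). Each of these contrasts shares a group with another.

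In HFDmetf vs. CDmetf, 8 of 60 (13.3%) were at unadjusted p under 0.05, 2 higher and 6 lower in HFDmetf, where the background was 7.87% of genes, 3.83% higher and 4.04% lower. The median logFC was -0.44, 23 of 60 were above 0 (55.2% of all genes), and 23 had an absolute logFC over 1 (2.49% of all genes). *Ighv7-3*, a leading segment, was one of those higher, at 0.301, 5.35 and 14.05 CPM in CDmetf and 0.477, 16.04 and 81.6 CPM in HFDmetf (logFC 2.38, SE 1.03, FDR = 0.61). *Ighv9-4* was at 0, 10.9 and 26.5 CPM in CDmetf and 0.102, 1.012 and 6.91 CPM in HFDmetf (logFC -3.14, SE 1.16, unadjusted p = 0.013, FDR = 0.60). *Ighv1-47* was lower in HFDmetf (logFC -4.13, SE 1.49, FDR = 0.60), but without CDmetf F1, at 99.6 CPM the highest animal, logFC was -1.43. *Ighv14-3* had a logFC of -1.33 (SE 0.58, FDR = 0.62), *Ighv1-7* of -1.65 (SE 1.07, FDR = 0.70) and *Ighv1-81* of -0.71 (SE 0.58, FDR = 0.77). Of other marker lists, 3 of 4 tested T-cell genes and 4 of 7 tested constant-region genes were also lower at that p. The count of segments was 5 without CDmetf F2, without CDmetf F3 or without HFDmetf M3. All 12 B-cell markers were lower at unadjusted p under 0.05 in this contrast, with a summed level of 10.0 to 36.4 CPM in HFDmetf. CDmetf M2, M3 and F1 lay within that range. With the B-cell score as a covariate 5 of 64 segments were below that p, all lower.

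In HFDmetf vs. HFD, 5 of 60 (8.33%) were at unadjusted p under 0.05, 3 higher and 2 lower, near the background of 6.61% (3.79% higher and 2.82% lower). The median logFC was 0.19, 35 of 60 were above 0 (53.9% of all genes), and 23 had an absolute logFC over 1 (1.93% of all genes). The count was 3 without CD F2, CDmetf M1, CDmetf F1 or CDmetf F2. *Ighv5-6* was at 0.172, 1.68 and 3.68 CPM in HFD and 0, 11.1 and 17.7 CPM in HFDmetf (logFC 2.49, SE 1.00, unadjusted p = 0.021, FDR = 0.64). *Ighv2-3* was at 0, 2.96 and 117 CPM in HFD and 0.159, 1.45 and 7.22 CPM in HFDmetf (logFC -2.56, SE 1.13, FDR = 0.64), and without HFD F3, the animal at 117 CPM, logFC was -0.97. *Ighv1-7* (logFC 2.33, SE 1.40), *Ighv14-3* (1.11, SE 0.65) and *Ighv1-81* (0.45, SE 0.61) had an FDR of 0.64 to 0.81. In this contrast 11 of the 12 B-cell markers were lower at unadjusted p under 0.05, although HFD M3, F2 and F3 lay within the HFDmetf range of their summed level. With the B-cell score as a covariate 2 of 64 segments were below that p. Of the 7 constant-region genes tested, 2 were lower at that p and 0 higher. All 3 haemoglobin genes taken as blood markers were higher at that p, with a summed level of 7.24 to 43.1 CPM in HFD and 23.5 to 95.2 CPM in HFDmetf.

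**Figure D5:**
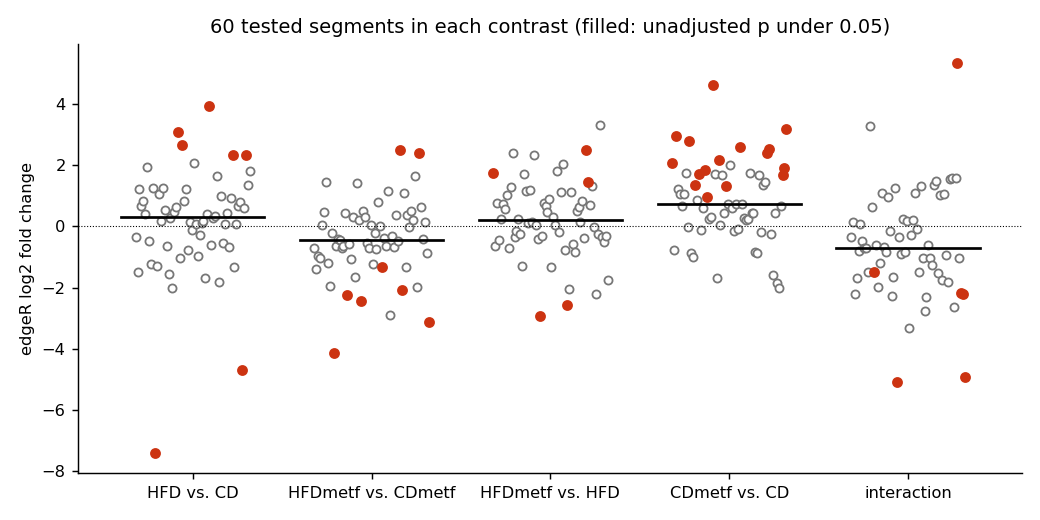
Log2 fold change of the 60 tested Ighv segments in the 4 contrasts and the diet by metformin interaction (edgeR). Each circle is a segment, filled where the unadjusted p was under 0.05, and the black line is the median. In CDmetf vs. CD all 16 filled circles lie above 0 and the median is 0.72, and no segment passed an FDR of 0.05.

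The interaction asked whether the logFC of metformin differed between the diets. It was at unadjusted p under 0.05 for 6 of 60 segments (10%), 1 higher and 5 lower, against 6.03% of all genes, 3.04% higher and 2.99% lower. The median was -0.70 over the segments and 0.03 over all genes tested, 20 of 60 were above 0 (54.0% of all genes), and 37 had an absolute value over 1 (5.36% of all genes). *Ighv1-75* had the smallest p, with an interaction of -5.10 (SE 1.05, unadjusted p = 7.6e-05, FDR = 0.55), and DESeq2 gave an adjusted p of 0.0068. *Ighv9-4* followed with -4.93 (SE 1.56, FDR = 0.71), and *Ighv7-4* stood in the other direction with 5.31 (SE 1.96, FDR = 0.80). *Ighv7-4* was at 0 in 4 of the 6 HFD animals (highest 0.428 CPM) and reached 21.3 CPM in CD and 20.8 CPM in HFDmetf. Without CD M1 the count of segments was 3 of 64, and with the B-cell score as a covariate it was also 3 of 64. At unadjusted p under 0.05 the interaction was lower for all 12 B-cell markers, 3 of 4 T-cell genes and 5 of 7 constant-region genes. It was also lower for 2 of 7 tested plasma cell genes, and higher for all 3 blood markers. The part of these in the results on segments was not tested. The fits with the B-cell score cannot decide it for plasma cells, since that score had a Pearson's r of only 0.06 with the *Ighv* total. No fit held the plasma cell score or the constant regions as a covariate.

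The *Ighv* total followed the RNA of the heavy-chain constant regions. Across the 24 libraries, Pearson's r between the log2 totals was 0.64 (permutation p = 0.00092, adjusted p = 0.0028 over 3 relations) and Spearman's rho 0.66 (permutation p = 0.00055). Without CD F3 and CDmetf M2, the libraries farthest from the median constant-region level, r was 0.57 (permutation p = 0.0056). Within replicate numbers 1, 2 and 3 (8 libraries each), r was 0.93, 0.87 and 0.38. *Igha*, the constant region of IgA, supplied 73.2% to 99.1% of the constant-region reads. For the B-cell score r was 0.06 (permutation p = 0.78, rho -0.04), and for the plasma cell score it was 0.38 (permutation p = 0.063, adjusted p = 0.095, rho 0.45, permutation p = 0.028).

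The number of *Ighv* reads for each 100 constant-region reads was 53.1 to 65.4 in 5 libraries (CD F3, CDmetf M3, CDmetf F3, HFD F3 and HFDmetf F3) and 14.9 to 36.3 in the other 19. These are reads on the members only. The 14.9 was HFD F2, where the members leave out 47.1% of the *Ighv* reads. All 5 carry replicate number 3, but CD M3, HFD M3 and HFDmetf M3, with the same number, were at 27.6, 32.8 and 31.1. The 5 were also deep, with 18233728 to 40384234 reads on genes. HFD F1 (40606442 reads) and CD M3 (22413162 reads) were deep as well, at 27.5 and 27.6. The part of number and depth in the results was not tested. For each 100 reads on light-chain V segments there were 74.9 to 135 *Ighv* reads in 23 libraries and 23.7 in the library labelled HFD F2, which was also the one with 47.1% of its *Ighv* reads outside the rule.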

How the data were processed

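Whole ileum RNA was depleted of ribosomal RNA and sequenced in 24 directional libraries, 6 per group. The read length was taken as 100 bases, which the study states only for its stool DNA libraries. Trimming used Trimmomatic 0.39 (sliding window of 5 bases at quality 25, reads under 30 bases dropped) and alignment to GRCm38 used STAR 2.5.3a, and the authors deposited raw counts per gene for 55536 genes. The annotation release and the strand setting of the counting were not given in the sources used here, and overlapping or antisense genes can therefore share reads. Symbols were found for 55450 genes. V segments are assigned from the germline genome, so reads that cross the junction with D and J or carry many mutations may be lost, and reads of near-identical segments may be dropped or split.

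The deposited counts were tested with edgeR 4.0.16 (quasi-likelihood, R 4.3.3) in 1 model of group, sex and replicate number over all 24 libraries, with edgeR's filter on low counts and TMM scaling, in which 14076 genes including 60 of the 80 segments were kept. FDR is the Benjamini-Hochberg value over all genes in the table. The total and the families were tested as summed rows of the same table. CPM used TMM library sizes. Shares and diversity were computed from counts in Python 3.11.15 (scipy 1.17.1), and compared by exact two-sided sign-flip permutation over 6 pairs of animals of the same sex and number. Sex is as labelled in the model, the pairs and the figures, also for HFD M2 and HFD F2. The permutation tests of family shares were not repeated without these 2 libraries. Correlations used 100000 permutations. The model was tested on simulated data with known changes. Alternatives were limma-voom 3.58.1, DESeq2 1.42.0, other scaling and filters, no replicate block, covariates and leaving out each of 24 animals.

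Named segments were the 3 markers, the 10 with the highest mean share, the leader of each library, the 3 smallest p in each contrast, and the members nearest the threshold of the rule. The members and lists were chosen with earlier results of these data known. Besides the lists of B-cell, plasma cell, ileum and constant-region genes, the summed level was 30.8 to 95.2 CPM for 7 germinal centre genes, 86.0 to 119 CPM for 10 V(D)J recombination genes, 10.2 to 79.4 CPM for 6 T-cell genes, 4246 to 10827 CPM for 5 epithelial genes, 903 to 3209 CPM for 4 smooth muscle genes and 7.24 to 95.2 CPM for 3 blood genes.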

Additional observations from a re-analysis of the deposited data

Results flagged for a closer look

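In 23 of 164 checks, the highest or lowest animal stood apart from the others of its group by Dixon's criterion. The segments checked included the leaders of single libraries and those with the smallest p. Some were thus chosen for an extreme animal, and the count cannot be set against a chance rate. Each check held 6 animals, except 5 for the expected number of segments in HFDmetf. Many of these were single animals with a high level of 1 segment. *Ighv1-72* reached 121.9 CPM in HFD M1 (others 3.95 to 5.57), *Ighv1-85* reached 179.4 CPM in the library labelled HFD M2 (others 0.221 to 2.45) and 27.9 CPM in CD M3 (others 0.161 to 1.86). *Ighv1-47* reached 99.6 CPM in CDmetf F1 (others 0 to 1.51), 3.27 CPM in HFDmetf F1 (others 0 to 0.569) and 0.541 CPM in HFD F1 (all others 0). In HFD M1, M2, M3 and F2, 3 reads amount to 0.869 to 1.28 CPM, so a level of 0.541 CPM could be missed there. In HFD F3 they amount to 0.0736 CPM. *Ighv7-4* was at 13.2 CPM in CDmetf M1 (others 0.0712 to 1.31), *Ighv1-18* at 13.3 CPM in HFD M1 (others 2.30 to 3.39) and *Ighv1-7* at 15.4 CPM in the library labelled HFD F2 (others 0.290 to 1.32). Low values were 0.301 CPM of *Ighv7-3* in CDmetf M2 (others 5.06 to 14.05) and 0.885 CPM of *Ighv9-3* in HFDmetf M3 (others 8.42 to 23.4).

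Among families, the share of *Ighv4* was 41.2% in CD M1 (others 0.148% to 1.18%), that of *Ighv13* was 7.93% in CD F2 (others 0% to 0.222%) and that of *Ighv10* was 11.4% in HFDmetf M3 (others 0.617% to 3.66%). The *Ighv2* share was 17.4% in HFD F3 (others 1.74% to 6.41%) and 6.88% in CD M2 (others 0.790% to 2.78%), and the *Ighv8* share was 1.32% in HFDmetf F1 (others 0.399% to 0.658%).

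The *Ighv* total of CDmetf M2 was 243.5 CPM (others 614.7 to 865.8). The *Ighv* reads for each 100 constant-region reads were 54.9 in CD F3 (others 27.6 to 36.3), 65.4 in HFD F3 (others 14.9 to 32.8) and 57.3 in HFDmetf F3 (others 24.9 to 31.1). The library labelled HFD F2 had a Simpson effective number of 21.7 (others 8.92 to 12.7) and 23.7 *Ighv* reads for each 100 light-chain V reads (others 83.2 to 104.7). These values, and the 14.9 above, which is also HFD F2, are over the members. The members leave out 47.1% of its *Ighv* reads. Outside the segments compared, 70 *Ighv* pseudogenes held 118 reads in all, with 0 to 32 in a library. No cause of these values was tested.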

How the results depend on the processing

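No total or family passed an FDR of 0.05 under any alternative run. DESeq2 called 1 segment in CDmetf vs. CD (*Ighv14-3*, 2.63) and 1 in the interaction (*Ighv1-75*, -5.10), and leaving out animals gave 0 to 1 called segments in HFD vs. CD. The total in HFD vs. CD was -0.05396 without CD M3 (-0.05396 to 0.317 over animals left out), and in HFDmetf vs. HFD it was -0.02645 when HFD M2 and HFD F2 were both left out and -0.04455 over all segments (-0.13 to 0.21). In HFD vs. CD, *Ighv1-7* was -1.21 by limma-voom and -1.97 without those 2 libraries (-1.64 to 1.74), *Ighv14-3* was -0.77, -0.15 with the B-cell score and -0.46 (-0.16 to 0.61), and *Ighv1-81* was -0.10 with the *Ighv* total as covariate and -0.19 (-0.25 to 0.65). *Ighv1-7* in HFDmetf vs. CDmetf ranged from -2.40 to 0.22. The Simpson difference for HFD vs. CD was -0.982 without those libraries and their pairs and -0.805 over all segments (-1.28 to 2.85), and it ranged from -2.96 to 1.47 in HFDmetf vs. CDmetf and -0.0890 to 2.78 in HFDmetf vs. HFD. The difference in the largest share for HFDmetf vs. HFD was -4.12, -3.38 and, for the 5 most used segments, -3.34 (-1.80 to 2.65), and for HFDmetf vs. CDmetf it was 3.03 with 5 segments (-5.14 to 3.22). It ranged from -6.72 to 0.629 in HFD vs. CD and from -8.02 to 3.61 in CDmetf vs. CD. The cause was not tested. At unadjusted p under 0.05, no filter on low counts gave 30 of 80 segments in CDmetf vs. CD, 17 in HFD vs. CD, 12 in the interaction, 15 in HFDmetf vs. CDmetf (limma-voom 14 of 60) and 13 in HFDmetf vs. HFD (limma-voom 11 of 60). Without the replicate block 0 of 55 segments passed an FDR of 0.05, and at that unadjusted p there were 15 in CDmetf vs. CD, 9 in HFD vs. CD, 9 in the interaction, 6 in HFDmetf vs. CDmetf and 4 in HFDmetf vs. HFD. The share of all genes at unadjusted p was computed for the main fit only, and the number of segments tested differs between fits. These counts therefore have no background and do not by themselves describe the segments. Libraries of the same number had a mean correlation of deviations of 0.130 (72 pairs, -0.458 to 0.757), those of different numbers -0.064 (144 pairs), and 14 of 24 correlated best with their own number. Depth limits HFDmetf F2 and the library labelled HFD F2 most, with 486 and 517 member reads.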

Other observations

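The light chain of the library labelled HFD F2 was also led by 1 segment. *Igkv19-93* took 984 of its 2022 kappa V reads (48.7%), while the leading kappa segment took 8.99% to 45.9% in the other 23 libraries. This value was looked at after the reads on *Ighv11-2* were seen.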
